A study of Mus musculus with 13 samples.

Results

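Mitochondrial ribosomal protein genes were followed in the gastrocnemius muscle of obese mice treated with semaglutide, with or without a ketone ester. The genes were taken by symbol from the table of normalized counts: every row beginning with Mrpl or Mrps and a number, pseudogenes left out, which gave 78 of 21868 genes, 49 named Mrpl and 29 named Mrps. RNA had been sequenced from 13 male mice, 1 library per mouse, of the strain C57BL/6 in the labels and C57BL/6N in the study's figure legends. The animals were 7 weeks old on arrival, were fed a diet with 60 kcal% fat for 15 to 17 weeks to make them obese, and were returned to standard chow before 3 weeks of treatment, so that all 3 groups share the obesity and the change of diet. Vehicle-treated mice received phosphate-buffered saline (n = 5, mice 1 to 5). Semaglutide, an agonist of the GLP-1 receptor used against obesity, was given intraperitoneally at 30 nM/kg per day (n = 5, mice 13 to 17). Semaglutide + ketone ester-treated mice received the same dose of semaglutide and the ester at 0.114 g/mL in their drinking water (n = 3, mice 19, 21 and 22). The labels name the first 2 groups vehicle and semaglutide with placebo, and there was no group with ketone ester alone.

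The mitochondrial ribosome (mitoribosome) translates the few proteins encoded by mitochondrial DNA, all of them subunits of the respiratory chain and the ATP synthase. Its ribosomal RNAs come from mitochondrial DNA, while its proteins are encoded in the nucleus, translated by cytosolic ribosomes and imported into the organelle. The large subunit forms peptide bonds, and the small subunit binds and decodes the mRNA. Some proteins have counterparts in bacterial ribosomes and others are found only in mitochondria. Skeletal muscle, in particular its oxidative fibers, is rich in mitochondria.

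By the protein names used here, 51 of the 78 genes encode proteins of the large subunit. Of these, 30 were classed as having a bacterial counterpart and 21 as specific to mitochondria. The small subunit is represented by 26 genes, of which 15 were classed here as having a bacterial counterpart and 11 as specific to mitochondria. Mrps28 and the S18 relative Mrps18b were counted among these 11, and placing either with the bacterial counterparts would change both counts. Several symbols do not match the place of the protein. Mrps30 and Mrps18a encode the large subunit proteins mL65 and mL66. Mrps36 encodes KGD4, which belongs to the 2-oxoglutarate dehydrogenase complex of the citric acid cycle and is not a ribosomal subunit. Mrps18a, Mrps18b and Mrps18c are 3 paralogs related to bacterial protein S18, of which Mrps18b and Mrps18c encode the small subunit proteins mS40 and bS18m. The genes are spread over 17 chromosomes, with at most 11 on a chromosome (chromosome 11).

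The 250 bases before the annotated start are shown for the S18 paralogs, of which Mrps18b and Mrps18c were called in opposite directions and Mrps18a was not called, and for Mrpl16 (large subunit protein uL16m), whose values did not overlap between any of the groups. They are from RefSeq on GRCm38.p6, 5′ to 3′ on the strand of the gene. Capitals mark a match to 1 of 6 motifs searched on both strands: NRF1 (GCGCATGC), the ETS family factor GABPA (CCGGAAG), the estrogen-related receptors (AAGGTCA), YY1 (AAGATGGC), CREB/ATF (TGACGTCA) and the E-box bound by MYC (CACGTG).
Mrps18a, chr17:46110754-46111003, + strand: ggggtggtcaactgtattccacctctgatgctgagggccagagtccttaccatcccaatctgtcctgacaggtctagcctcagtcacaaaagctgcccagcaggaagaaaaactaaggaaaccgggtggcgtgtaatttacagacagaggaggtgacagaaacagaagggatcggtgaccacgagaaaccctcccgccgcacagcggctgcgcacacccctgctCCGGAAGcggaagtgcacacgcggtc
Mrps18b, chr17:35916441-35916690, - strand: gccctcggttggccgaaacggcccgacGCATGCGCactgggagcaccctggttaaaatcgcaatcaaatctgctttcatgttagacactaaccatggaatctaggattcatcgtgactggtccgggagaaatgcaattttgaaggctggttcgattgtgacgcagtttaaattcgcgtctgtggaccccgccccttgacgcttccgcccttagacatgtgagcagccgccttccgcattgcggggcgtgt
Mrps18c, chr5:100798509-100798758, + strand: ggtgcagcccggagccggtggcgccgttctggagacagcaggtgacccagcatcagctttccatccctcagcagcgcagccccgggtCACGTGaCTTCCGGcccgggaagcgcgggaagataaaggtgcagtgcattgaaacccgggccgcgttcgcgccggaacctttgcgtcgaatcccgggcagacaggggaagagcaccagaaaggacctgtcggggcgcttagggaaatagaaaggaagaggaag
Mrpl16, chr19:11770165-11770414, + strand: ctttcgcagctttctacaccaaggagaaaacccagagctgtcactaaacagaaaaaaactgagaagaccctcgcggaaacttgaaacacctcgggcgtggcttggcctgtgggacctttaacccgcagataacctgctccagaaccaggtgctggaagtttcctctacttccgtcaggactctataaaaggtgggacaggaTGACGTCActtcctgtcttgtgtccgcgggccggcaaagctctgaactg

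In these windows the paralogs hold different letters: Mrps18b a match to the NRF1 motif, Mrps18a 1 to GABPA, and Mrps18c 1 to GABPA beside an E-box. Promoters were given for 69 of the 78 genes. The GABPA motif was present in 18 of the 69 (26.1%), against 7.83% of all 27025 genes with a promoter and 15.5% of the 9653 with a promoter that were also tested for expression. The NRF1 motif was present in 8 of 69 (11.6%, against 2.56% and 5.02%) and the YY1 motif in 4 (5.80%, against 1.83% and 2.35%). The estrogen-related receptor motif was found in 3, the CREB/ATF motif in 2 and the E-box in 5, that is 4.35%, 2.90% and 7.25%, beside 4.70%, 1.77% and 6.86% of all genes with a promoter and 3.42%, 2.98% and 9.99% of those tested for expression. At least 1 of the motifs was found in 34 genes. Matches of these letters are a description of the sequence and not evidence of binding.

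Reads counted on genes numbered between 15319471 and 23498162 per mouse. The 78 genes together took 0.217% to 0.235% of the reads in vehicle-treated, 0.224% to 0.254% in semaglutide-treated mice, and 0.224% to 0.243% where the ketone ester was added. Transcripts of the mitochondrially encoded proteins took 17.2% to 19.9%, 11.4% to 13.7% and 15.6% to 17.0% of the reads. The 7 markers of fast skeletal muscle had the highest sum of the marker lists in every group, from 1494009 to 3700705 normalized counts per mouse. Semaglutide mouse 13 stood apart: it scored -9.12 on the first principal component of all genes tested (38.1% of the variance), where mice 14 to 17 had scores of 31.8 to 52.5, vehicle-treated mice of -24.5 to -12.8 and mice given the ketone ester of -25.6 to -15.8.

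Every one of the 78 genes was expressed in the muscle. Their mean normalized count was at least 100 in 77 genes, Mrpl23 being the exception, and all 78 passed the filter on low values (a mean of 10), as did 12303 genes in all. Levels of different genes were compared per kilobase of the principal transcript, on which scale the median gene had 329 normalized counts per kilobase. The highest levels were those of Mrpl42 (mL42, 3254), Mrps21 (bS21m, 2232) and Mrpl30 (uL30m, 1308), and the lowest those of Mrps25 (54.7), Mrpl19 (57.1) and Mrpl23 (59.3). Mrpl23 and Mrps36, as well as Mrpl48, have processed pseudogenes of their name in the GENCODE annotation, and how reads shared with such copies were counted is not given in the sources used here. Exons of 23 of the genes overlap those of another protein-coding gene, on the same strand in 4 cases, and the strand setting of the counting is likewise not given.

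The replicates were close to each other in vehicle-treated mice and wider apart under semaglutide. The median coefficient of variation of the 78 genes was 6.24% in vehicle-treated, 13.0% in semaglutide-treated and 8.53% in semaglutide + ketone ester-treated mice. Summed over the genes, the normalized count was 44418 ± 837 (SD) with vehicle (n = 5), 41289 ± 4060 with semaglutide (n = 5) and 46830 ± 2992 with semaglutide + ketone ester (n = 3). As the mean log2 difference from the vehicle mean, vehicle-treated mice lay between -0.05 and 0.03. Semaglutide mice 13, 14 and 15 were at 0.02, -0.05 and -0.06, mouse 17 at -0.19 and mouse 16 at -0.33. Semaglutide + ketone ester mice 19 and 21 were at 0.01 and 0.01 and mouse 22 at 0.17. The lower mean of the semaglutide group thus came mainly from mice 16 and 17, and the higher mean of the semaglutide + ketone ester group from mouse 22. In bulk muscle, fewer cells of a type and less RNA per cell cannot be told apart.

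**Figure D1:**
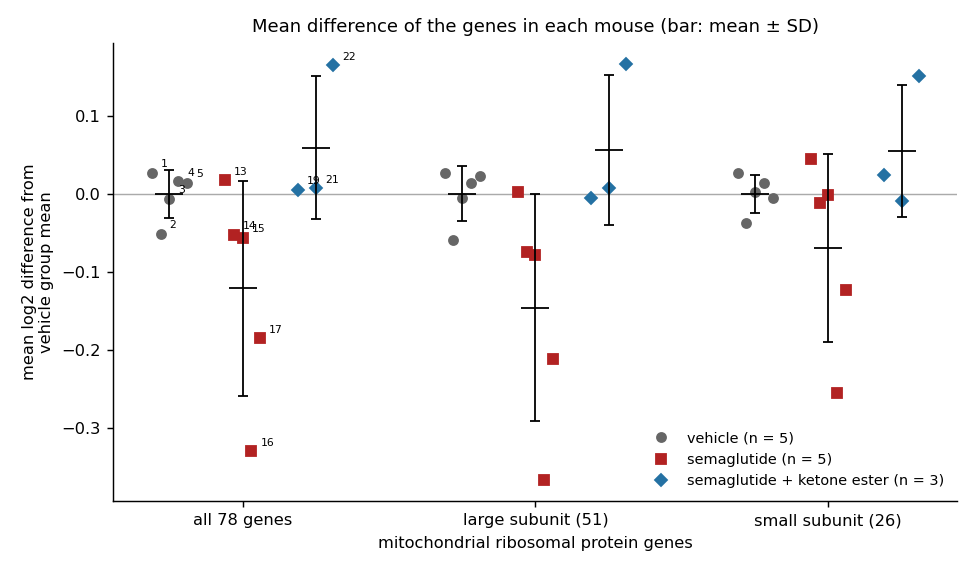
Mean log2 difference from the vehicle group mean (vertical axis) of all 78 genes, the 51 large subunit genes and the 26 small subunit genes, 1 point per mouse with the mouse number beside it for all genes; bars give mean and SD. Semaglutide mice 16 and 17 lie lowest, at -0.33 and -0.19 over all genes, and semaglutide + ketone ester mouse 22 highest, at 0.17.

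Whether semaglutide altered the genes was asked first. Relative to vehicle-treated mice, 17 of the 78 genes fell and 2 rose (limma on log2(normalized count + 1) with all 3 groups in the model, Benjamini-Hochberg adjusted p under 0.05 over the 12303 genes tested). These are 21.8% and 2.56% of the genes, beside 13.2% lower and 11.9% higher among all genes tested. The median log2 difference of the 78 genes was -0.10, and 54 of them had a negative value, while the median over all genes was -0.0029. The values ranged from -0.80 (Mrpl19) to 0.46 (Mrps30). The values of the groups did not overlap in 10 genes. In 8 of them (10.3%) semaglutide was the lower group, against 7.45% of all genes, and in 2 (2.56%) the higher, against 7.22%. Without mouse 13 the counts were 28 lower and 3 higher, and without mouse 17 they were 8 and 1. Totals of 10 to 12 genes were called when vehicle mouse 1, 3, 4 or 5 was left out.

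The direction of the group as a whole depended on the scaling of the libraries. When every library was scaled to the same total, the median of the 78 genes was 0.077, with 3 lower and 18 higher, but the median of all genes tested then moved to 0.17, with 929 lower and 3262 higher in place of 1625 and 1459. Set against the median of all genes, the 78 genes stood at -0.094 as deposited. They stood at -0.093 with equal totals and at -0.093 with equal totals of the nuclear genes. Both rescalings multiply all genes of a library by the same factor, so by their arithmetic they leave this difference nearly unchanged. Quantile normalization could have changed the difference, and gave -0.13. Mitochondrially encoded transcripts, whose share of the reads differed between the groups, are part of the equal totals. With totals of the nuclear genes only, 11 genes were lower and 4 higher, with a median of -0.026.

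Of the large subunit genes 14 of 51 (27.5%) fell and none rose, with a median of -0.10. Among the small subunit genes 3 of 26 (11.5%) fell and 2 (7.69%) rose, with a median of -0.080, and both shares were below the 13.2% and 11.9% of all genes tested. Genes with a bacterial counterpart and genes specific to mitochondria were found among those that fell, 9 of 30 (30.0%) and 5 of 21 (23.8%) in the large subunit and 2 of 15 (13.3%) and 1 of 11 (9.09%) in the small, the last 2 shares being near or below that of all genes. Whether the subunits or the classes differ from each other was not tested.

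Mrpl48 encodes mL48, a large subunit protein specific to mitochondria. Its normalized counts were 465, 480, 490, 500 and 546 in vehicle-treated mice, 444, 304, 315, 276 and 295 in semaglutide mice 13 to 17, and 426, 511 and 523 in semaglutide + ketone ester-treated mice. All semaglutide-treated mice were below all vehicle-treated mice, mouse 13 only slightly. Mrpl48 fell by 0.62 ± 0.12 (SE) on the log2 scale relative to vehicle (adjusted p = 0.0044, limma) and was called lower in each of the 13 fits made without 1 mouse and in all 12 other settings.

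Mrpl28 encodes bL28m, a large subunit protein with a bacterial counterpart. It had 720, 565, 647, 695 and 738 normalized counts in vehicle-treated mice and 600, 498, 450, 394 and 407 in semaglutide-treated mice. Only mouse 13 reached into the vehicle range. The log2 difference was -0.53 ± 0.12 (SE, adjusted p = 0.011), and the call also held in all 13 fits without a mouse and all 12 other settings.

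The lowest fold change belonged to Mrpl19, which encodes the large subunit protein bL19m. Vehicle-treated mice had 305 to 365 normalized counts, with a median of 341, while semaglutide mice 13 to 17 had 353, 245, 196, 113 and 142. Mouse 13 was among the vehicle values and the other 4 were below them. The difference of -0.80 ± 0.25 (SE, adjusted p = 0.034) was called in 5 of the 13 fits made without 1 mouse. Mrpl45 (mL45) and Mrpl18 (uL18m, a protein at the 5S rRNA site of bacterial ribosomes) showed the same arrangement of mice. Mrpl45 had 842 to 977 normalized counts under vehicle and 878, 749, 588, 494 and 527 in mice 13 to 17, a log2 difference of -0.52 ± 0.14 (SE, adjusted p = 0.021), called in 10 of the 13 fits and lost with equal totals. Mrpl18 had 1030 to 1174 under vehicle and 1107, 863, 790, 528 and 721 under semaglutide, a log2 difference of -0.48 ± 0.16 (SE, adjusted p = 0.042). The call of Mrpl18 was kept in 1 of the 13 fits without a mouse and lost with equal totals, without the filter on low values and with only the 2 groups compared. The last 2 settings also lost that of Mrpl19.

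The other large subunit genes that fell did so by 0.29 to 0.36 on the log2 scale. Among them are Mrpl10, which encodes uL10m of the stalk where translation factors dock, Mrpl3, Mrpl4, Mrpl22 and Mrpl1 with bacterial counterparts, Mrpl50, Mrpl39 and Mrpl44 without one, and Mrpl16. Groups of mice did not overlap for Mrpl10, Mrpl50, Mrpl16, Mrpl22 and Mrpl1. Mrpl10 had 600 to 636 normalized counts in vehicle-treated mice and 432 to 581 in semaglutide-treated mice. Mrpl22 had 178 to 195 and 130 to 173. All of these calls were lost with equal totals. Mrpl44 was called in 2, Mrpl39 in 4, Mrpl4 in 5, Mrpl3 in 8 and Mrpl1 in 10 of the 13 fits without a mouse, the others in all 13.

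In the small subunit, Mrps6 and Mrps33 fell together with Mrps18c. Mrps33 (mS33) had 314 to 356 normalized counts under vehicle and 219 to 286 under semaglutide (log2 difference -0.38 ± 0.09 SE, adjusted p = 0.013). Mrps6 (bS6m) had 173 to 224 and 123 to 168 (log2 difference -0.42 ± 0.11 SE, adjusted p = 0.015). For both genes the groups did not overlap, and both calls were kept in all 13 fits without a mouse and lost with equal totals. Exons of Mrps6 overlap those of Slc5a3 on the same strand, so that reads of the 2 genes cannot be told apart there.

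Among the paralogs of S18, Mrps18b had 540, 539, 561, 507 and 586 normalized counts in vehicle-treated mice, 707, 708, 719, 665 and 673 in semaglutide-treated mice and 553, 524 and 487 in semaglutide + ketone ester-treated mice. All 5 semaglutide-treated mice, mouse 13 included, were above every mouse of the other groups. Mrps18b rose by 0.35 ± 0.07 (SE) on the log2 scale, or 27.1% (adjusted p = 0.0044), and was called in all 13 fits without a mouse and all 12 other settings.

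Mrps18c went the other way. Its normalized counts were 249 to 295 under vehicle (median 275) and 262, 239, 198, 152 and 175 in semaglutide mice 13 to 17. Mouse 13 lay within the vehicle range, the other semaglutide-treated mice below it. Mrps18c fell by 0.43 ± 0.13 (SE, adjusted p = 0.033), a call kept in 6 of the 13 fits without a mouse and lost with equal totals, without the filter on low values and with only the 2 groups compared. Mrps18a, which encodes the large subunit member of the family, had 714 to 864 normalized counts under vehicle and 738 to 848 under semaglutide, a log2 difference of 0.01 with a 95% interval from -0.15 to 0.17.

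The ratio of Mrps18b to Mrps18c within a mouse does not depend on the scaling of the library. It was 1.83 to 2.25 in vehicle-treated mice, 2.70, 2.96, 3.63, 4.36 and 3.85 in semaglutide mice 13 to 17 and 1.74 to 2.17 when the ketone ester was added. Every semaglutide-treated mouse was above every other mouse. The pair was chosen for its opposite directions, so the ratio is a description without a test.

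**Figure D2:**
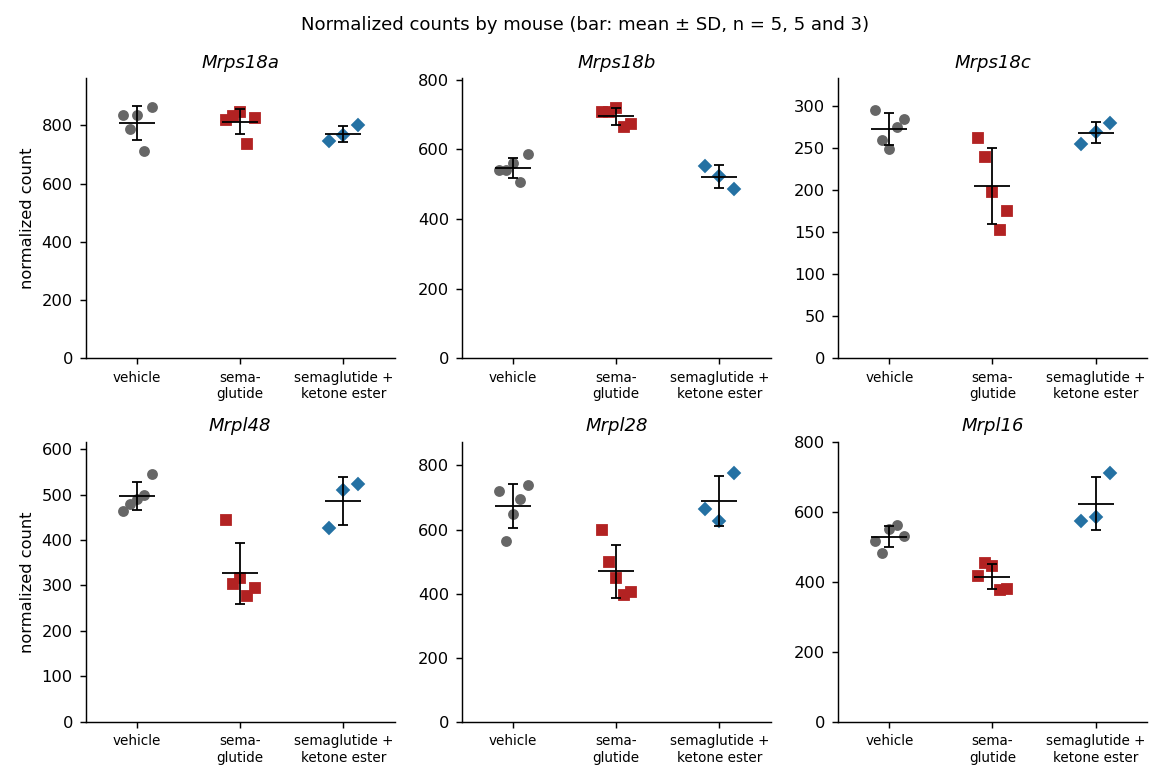
Normalized counts (vertical axes, from 0) of Mrps18a, Mrps18b, Mrps18c, Mrpl48, Mrpl28 and Mrpl16, 1 point per mouse by treatment group, with mean and SD. Mrps18b lies higher in all 5 semaglutide-treated mice (665 to 719) than in vehicle-treated mice (507 to 586), while Mrpl48 lies lower (276 to 444 against 465 to 546).

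Mrps26 (mS26) was the other gene that rose under semaglutide, from 349 to 392 normalized counts in vehicle-treated mice to 414 to 524 (log2 difference 0.28 ± 0.09 SE, adjusted p = 0.034). The groups did not overlap. The call was kept in 5 of the 13 fits without a mouse and lost without the filter on low values. Mrps30 had the most positive value of the 78 genes but did not pass the threshold (0.46 ± 0.18 SE, adjusted p = 0.079). Its semaglutide values were 411, 704, 808, 579 and 908 against 432 to 499 in vehicle-treated mice, with only mouse 13 not above the vehicle range. Mrpl23, with 28.9 to 44.2 and 34.9 to 57.8 normalized counts, had a log2 difference of 0.45 ± 0.18 (SE, adjusted p = 0.091).

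Several prominent members did not pass the test. Mrpl12 encodes bL12m, the stalk protein that recruits translation factors and is also known to bind the mitochondrial RNA polymerase. It had 1422 to 1532 normalized counts under vehicle and 1058 to 1615 under semaglutide, a log2 difference of -0.25 with a 95% interval from -0.51 to 0.0047 (adjusted p = 0.14). Mrpl42 had a log2 difference of -0.23 and Mrpl51 (mL51) of -0.21, with adjusted p of 0.18 and 0.24. For 48 of the 78 genes the 95% interval of the difference lay within 0.5 log2 units of 0, and for 11 within 0.25.

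The second comparison asked how the muscle differed when the ketone ester was added to semaglutide. It uses the same semaglutide-treated mice, so its values are not independent of those above. Relative to semaglutide-treated mice, 13 of the 78 genes (16.7%) were higher and 1 (1.28%) was lower in semaglutide + ketone ester-treated mice, beside 9.09% higher and 9.3% lower among all genes tested. The median log2 difference was 0.19, with 60 positive values. In 10 genes (12.8%) all mice with ketone ester were above all semaglutide-treated mice, against 9.96% of all genes, and in 1 (1.28%) below, against 10.2%. With equal totals the median was -0.051, with 2 genes higher and 15 lower, while the median of all genes moved to -0.24, with 611 higher and 3587 lower in place of 1118 and 1144. With equal totals of the nuclear genes 5 of the 78 were higher and 6 lower. Set against the median of all genes, the 78 genes stood at 0.19 as deposited and at 0.18 under both of these scalings, which by their arithmetic leave this difference nearly unchanged.

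The number of genes called here depended on single mice. Without semaglutide + ketone ester mouse 21 it was 2 higher and 1 lower, and without mouse 22 it was 2 and 2. Without mouse 13 it was 28 and 2, without mouse 17 it was 6 and 1, and without vehicle mouse 1 or 5, which enter through the shared estimate of the spread, 8 and 1. A fit of these 2 groups alone called 1 gene in each direction, Mrpl16 higher and Mrps18b lower.

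Mrpl16 had the smallest adjusted p of the 13 increases. Its protein, uL16m, lies near the peptidyl transferase center of the large subunit. Normalized counts were 484 to 562 in vehicle-treated mice, 418, 454, 447, 377 and 380 in semaglutide-treated mice and 574, 587 and 711 in semaglutide + ketone ester-treated mice. The 3 groups did not overlap, with semaglutide lowest and semaglutide + ketone ester highest. Against semaglutide the log2 difference was 0.59 ± 0.10 (SE, adjusted p = 0.0039), called in all 13 fits without a mouse and all 12 other settings.

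Mrps18b was the 1 gene that was lower with the ketone ester than with semaglutide alone. It fell by 0.41 ± 0.08 (SE) on the log2 scale (adjusted p = 0.0055), and its 3 values, given above, lay below all 5 semaglutide values. This call, too, was kept in all 13 fits without a mouse and all 12 other settings.

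Mrpl48 was higher than with semaglutide alone by 0.59 ± 0.14 (SE, adjusted p = 0.015), although mouse 19, at 426 normalized counts, was below semaglutide mouse 13. Mrpl28, with 666, 626 and 775 normalized counts, was higher by 0.56 ± 0.14 (SE, adjusted p = 0.020), and all 3 values were above the semaglutide range. Mrpl50 (783, 848 and 877) and Mrpl3 (666, 681 and 814) were also above all semaglutide-treated mice, with log2 differences of 0.45 and 0.44. Mrpl10, Mrpl44 and Mrps33 had differences of 0.35, 0.36 and 0.39 with adjusted p of 0.037, 0.042 and 0.029. Of the 13 fits without a mouse, Mrpl28 was called in 12, Mrpl48, Mrpl50 and Mrpl3 in 11, Mrps33 in 9, Mrpl44 in 3 and Mrpl10 in 2. All 7 calls were lost when only the 2 groups were compared and, except for Mrpl48, with equal totals. Of the genes that fell under semaglutide, Mrpl19, Mrpl45, Mrpl18, Mrpl4, Mrpl22, Mrpl39, Mrpl1, Mrps18c and Mrps6 did not pass here. Their differences ranged from 0.15 (Mrpl22) to 0.74 (Mrpl19), with adjusted p of 0.058 to 0.34 in limma. Mrps26, which rose under semaglutide, did not pass either (-0.12, adjusted p = 0.43).

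Other genes were called higher with the ketone ester without having passed the threshold as lower under semaglutide. Their log2 differences between semaglutide and vehicle were negative too. They were -0.22 (Mrpl33), -0.23 (Mrpl42), -0.19 (Mrps21) and -0.27 (Mrpl27), with adjusted p of 0.11, 0.18, 0.22 and 0.10 in limma. Mrpl33 encodes bL33m. It had 560 to 620 normalized counts under vehicle, 410 to 573 under semaglutide and 729, 704 and 660 with the ketone ester, the last being above both other groups (0.47 ± 0.11 SE against semaglutide, adjusted p = 0.013). Mrpl42 had 2018 to 2280, 1460 to 2358 and 2279, 2696 and 2982 normalized counts (0.51 ± 0.14 SE against semaglutide, adjusted p = 0.025). Mrps21, with 1221, 1213 and 1389 counts against 736 to 1166 under semaglutide, and Mrpl27, with 205, 221 and 236 against 127 to 196, each had a log2 difference of 0.41, with adjusted p of 0.043 and 0.049. Mrpl33 was called in 12, Mrpl42 in 10, Mrps21 in 2 and Mrpl27 in 1 of the 13 fits without a mouse, and all 4 calls were lost with equal totals and with only the 2 groups compared.

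Mrps36, the component of the 2-oxoglutarate dehydrogenase complex, had 256 to 354 normalized counts under vehicle, 230 to 337 under semaglutide and 319, 423 and 419 with the ketone ester. It was higher with the ketone ester than with semaglutide alone by 0.52 ± 0.16 (SE, adjusted p = 0.039), and against vehicle semaglutide gave -0.21 (adjusted p = 0.27). The call was kept in 5 of the 13 fits without a mouse and in 8 of the 12 other settings. Of the other genes of this complex, Dld and Dlst fell under semaglutide by 0.41 and 0.39 (adjusted p = 0.0050 and 0.019) and were higher with the ketone ester by 0.41 and 0.53 (adjusted p = 0.013 and 0.012). Ogdh passed in neither comparison, with differences of -0.20 and 0.15.

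**Figure D3:**
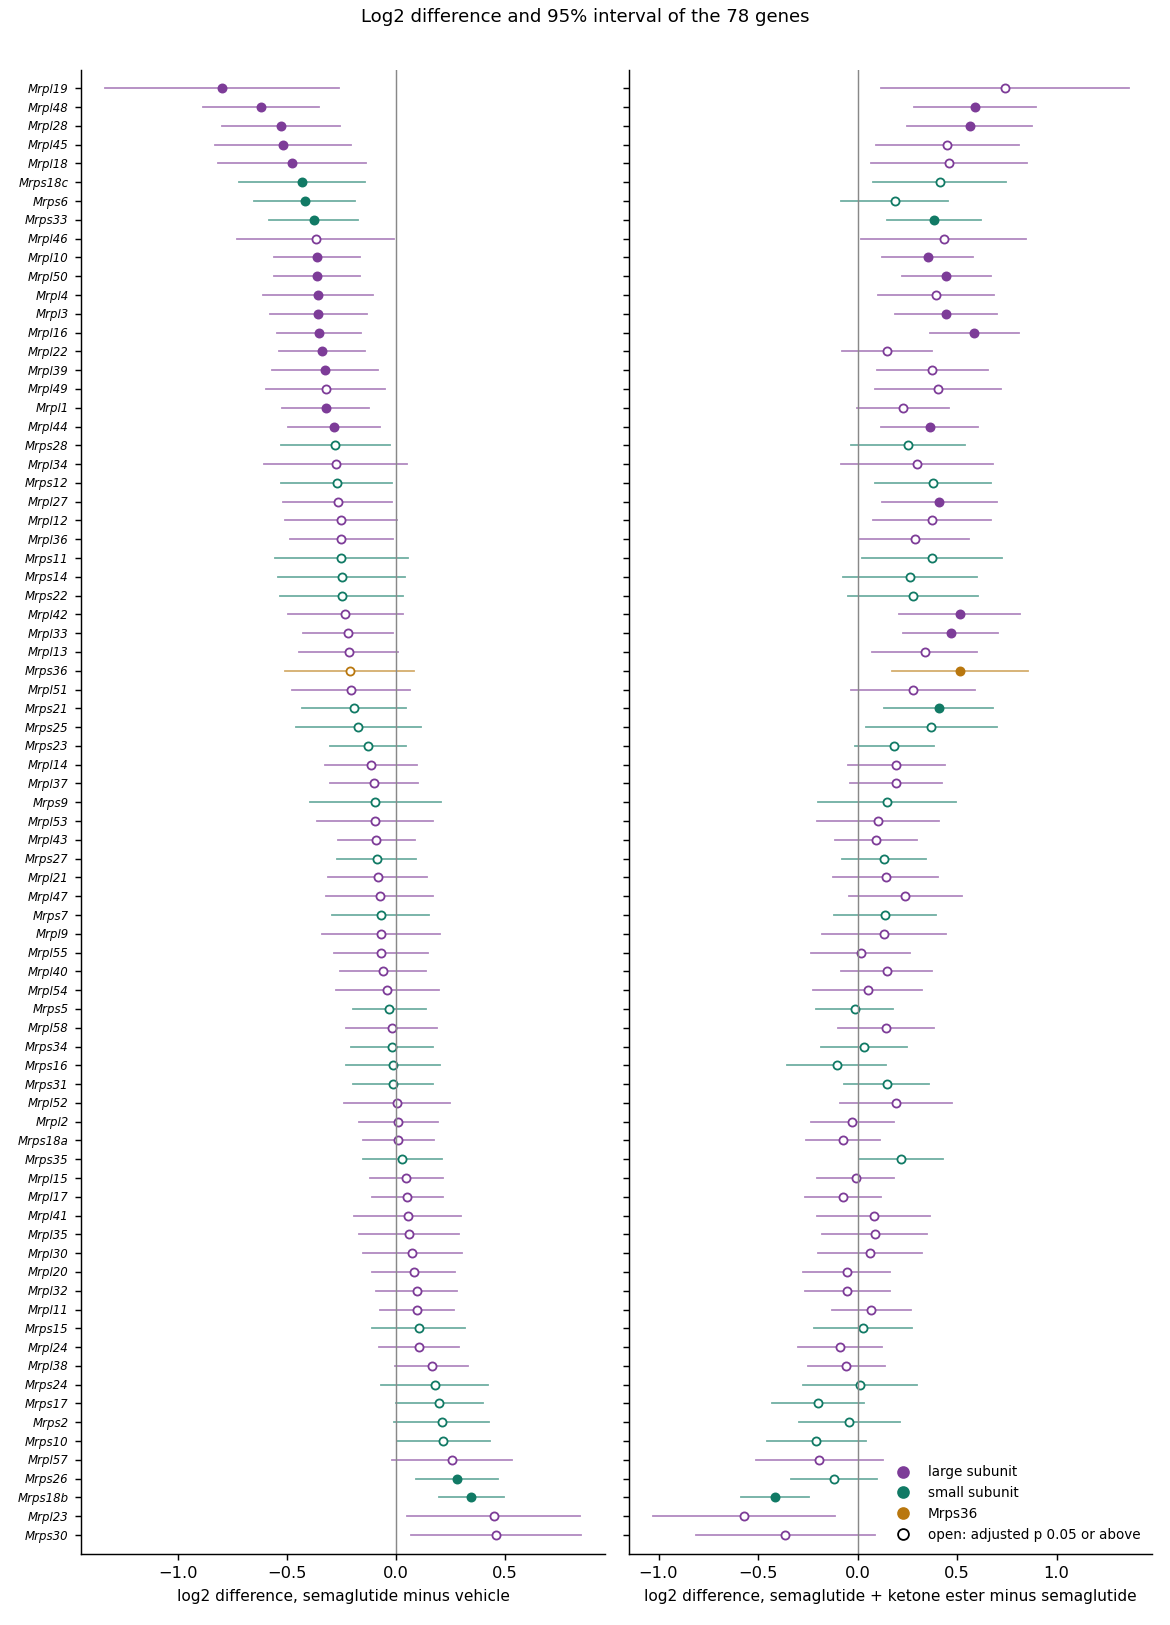
Log2 difference with its 95% interval for each of the 78 genes, for semaglutide minus vehicle (left) and semaglutide + ketone ester minus semaglutide (right), ordered by the left panel; filled points have an adjusted p under 0.05. Filled points number 17 on the negative and 2 on the positive side at left, and 13 on the positive and 1 on the negative side at right; both panels use the same semaglutide-treated mice.

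Against vehicle-treated mice, none of the 78 genes differed in semaglutide + ketone ester-treated mice at an adjusted p under 0.05 in limma, nor with edgeR or DESeq2 on the recovered reads, beside 0.163% of all genes lower and 0.0732% higher. An unadjusted p under 0.05 was reached by 3 genes, Mrps35, Mrpl33 and Mrpl16, with log2 differences of 0.25, 0.25 and 0.23. Mrps35 (mS35) had 228 to 243 normalized counts in vehicle-treated mice and 270, 249 and 323 with the ketone ester. The median over the 78 genes was 0.057. All mice with ketone ester were above all vehicle-treated mice in 7 genes (8.97%, against 5.45% of all genes) and below in 1, Mrpl22 (1.28%, against 5.88%). For 71 of the 78 genes the 95% interval of the difference lay within 0.5 log2 units of 0, and for 13 within 0.25. Differences inside the interval of a gene remain compatible with its values, so the absence of a call does not show equality with vehicle. The median was -0.0064 with equal totals, -0.049 with equal totals of the nuclear genes and 0.00084 without mouse 22.

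Genes around the mitoribosome were read from the same fit. The lists were chosen with earlier results of these data known, and the counts and medians are descriptions. Of 5 subunit genes whose symbols do not begin with Mrpl or Mrps, Ptcd3 (mS39) fell under semaglutide by 0.41 ± 0.11 (SE, adjusted p = 0.018) and was higher with the ketone ester by 0.52 (adjusted p = 0.016). The other four, Dap3, Gadd45gip1, Chchd1 and Aurkaip1, had differences of -0.18 to -0.0094 under semaglutide and passed in neither comparison.

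Of 16 mitochondrial translation factors, 6 (37.5%, against 13.2% of all genes) fell under semaglutide, with a median of -0.29. None rose, against 11.9% of all genes. With the ketone ester 7 (43.8%, against 9.09% of all genes) were higher than with semaglutide alone, with a median of 0.41. Taco1, the translational activator of cytochrome c oxidase subunit I, had 575 to 609 normalized counts under vehicle, 504, 340, 288, 196 and 216 in semaglutide mice 13 to 17 and 549, 693 and 778 with the ketone ester. All semaglutide-treated mice were below all other mice. It fell by 1.02 ± 0.21 (SE, adjusted p = 0.0059) and was higher with the ketone ester by 1.19 ± 0.25 (SE, adjusted p = 0.0078). Gfm1, the elongation factor that moves the ribosome along the mRNA, fell by 0.48 (adjusted p = 0.0044), and Mtrf1l, a release factor, by 0.63 (adjusted p = 0.031).

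Of the assembly factors of the mitoribosome, 4 of 27 (14.8%) fell and 2 (7.41%) rose under semaglutide, with a median of -0.032, near or below the 13.2% and 11.9% of all genes tested. The rRNA methyltransferases Mrm1 and Mrm2 fell by 0.69 and 0.64 (adjusted p = 0.0083 and 0.036), and Malsu1, a factor of large subunit assembly, rose by 0.48 (adjusted p = 0.025). With the ketone ester, 3 (11.1%, against 9.09% of all genes) were higher than with semaglutide alone and 1 (3.70%, against 9.3%), Malsu1, was lower by 0.52 (adjusted p = 0.038).

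Of 17 mitochondrial aminoacyl-tRNA synthetases 5 (29.4%, against 13.2% of all genes) fell under semaglutide, with a median of -0.16. Ears2 was the 1 that rose (5.88%, against 11.9% of all genes), by 0.52 (adjusted p = 0.0045). Sars2 fell by 0.52 (adjusted p = 0.022). Of 19 genes of mitochondrial transcription and RNA handling 2 (10.5%) fell and 1 (5.26%) rose, with a median of -0.12, both shares below those of all genes. Mterf2, a mitochondrial termination factor family member, fell from 166 to 213 normalized counts in vehicle-treated mice to 64.4 to 134 (log2 difference -1.11 ± 0.19 SE, adjusted p = 0.0022). Tfam, which packages mitochondrial DNA and starts its transcription, fell by 0.27 (adjusted p = 0.032), and Elac2, which trims mitochondrial tRNA precursors, rose by 0.45 (adjusted p = 0.026).

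Regulators of mitochondrial gene expression, among them the factors named for the motifs above, did not share a direction. Of 11 genes 1 (9.09%, against 13.2% of all genes) fell and 3 (27.3%, against 11.9%) rose under semaglutide. Esrra fell by 0.78 ± 0.17 (SE, adjusted p = 0.0071) under semaglutide, while Nrf1, Myc and Pprc1 rose by 0.65, 1.16 and 0.30 (adjusted p = 0.0070, 0.0040 and 0.031). With the ketone ester, Esrra was higher than with semaglutide alone by 0.72 (adjusted p = 0.026), and Nrf1, Myc, Pprc1 and Yy1 were lower, by 0.70, 1.53, 0.40 and 0.43. That is 1 gene higher (9.09%, the same share as of all genes) and 4 lower (36.4%, against 9.3% of all genes). Gabpa passed in neither comparison, with differences of -0.10 and 0.0015. Ppargc1a had 1501 to 3108 normalized counts under vehicle, 944 to 2870 under semaglutide and 710 to 1133 with the ketone ester, and passed in no comparison.

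The mRNAs that the mitoribosome translates, and those of the nuclear partners of its products, showed larger differences on the same scale. Transcripts of 12 of the 13 mitochondrially encoded proteins (92.3%) fell under semaglutide, with a median of -0.72. Of the nuclear genes of the respiratory chain and ATP synthase 65 of 76 (85.5%) fell, with a median of -0.47, beside 13.2% of all genes tested. Cytosolic ribosomal protein genes, counted beside them, rose in 74 of 79 cases (93.7%, against 11.9% of all genes), with a median of 0.70. With the ketone ester relative to semaglutide, these medians were 0.60, 0.59 and -0.50, beside 0.19 for the 78 mitochondrial ribosomal protein genes. The differences between lists were not tested. The 2 mitochondrial ribosomal RNAs were not found by symbol among the genes with normalized counts, so they could not be analysed.

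**Figure D4:**
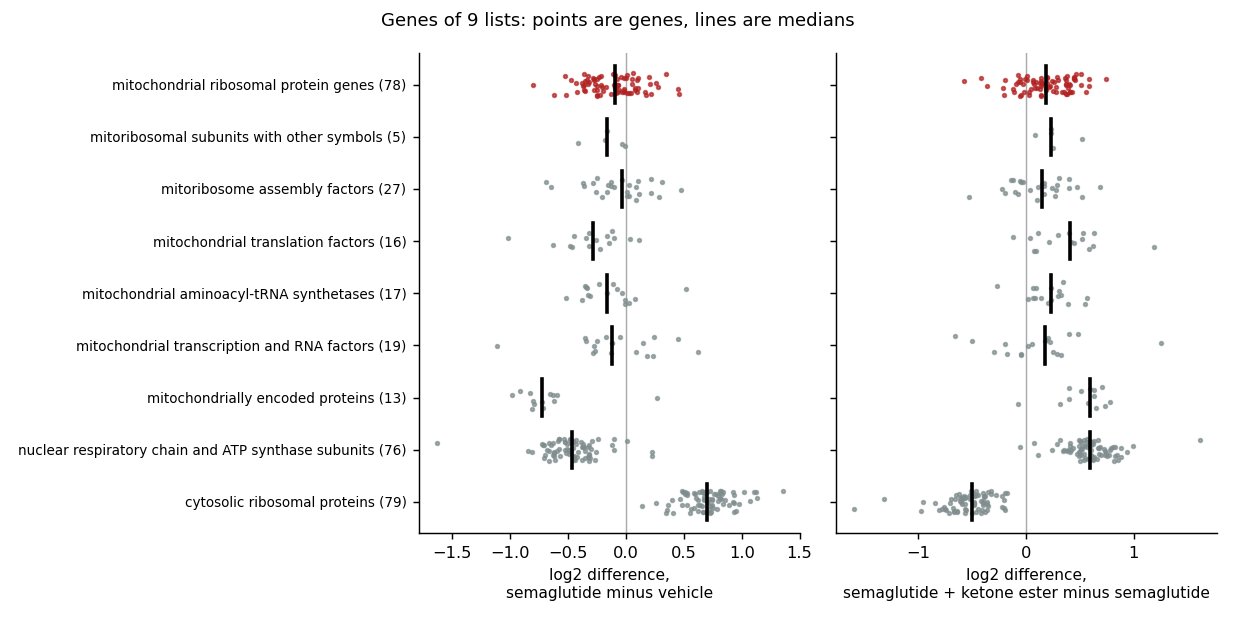
Log2 difference of the genes of 9 lists (number of genes tested in brackets), for semaglutide minus vehicle (left) and semaglutide + ketone ester minus semaglutide (right); each point is a gene and the black line is the median. The 78 mitochondrial ribosomal protein genes lie around a median of -0.10 at left and 0.19 at right, between the medians of the nuclear respiratory chain genes (-0.47 and 0.59) and the cytosolic ribosomal protein genes (0.70 and -0.50).

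Markers of some other cell types differed between the groups too. Under semaglutide 4 of 5 fibroblast markers fell (median log2 difference -1.21), 1 of 8 markers of slow or oxidative fibers fell (median -0.50), as did 2 of 7 markers of fast fibers (median -0.29). Summed fibroblast markers ranged from 5120 to 11723 normalized counts in vehicle-treated, 4625 to 6371 in semaglutide-treated and 6644 to 11019 with the ketone ester. For slow or oxidative fibers the sums were 42986 to 120278, 33835 to 91396 and 66869 to 103632. None of 5 erythroid markers passed under semaglutide (median -2.41), mouse 13 having 3148 normalized counts in sum where the lowest semaglutide-treated mouse had 50.5. With the ketone ester 4 of the 5 (80.0%, against 9.09% of all genes) were higher than with semaglutide alone (median 3.93). So were 5 of 7 markers of fast fibers (71.4%, median 0.51) and 3 of 5 fibroblast markers (60.0%, median 1.55), and none of the 8 of slow or oxidative fibers (median 0.26). Adipocyte (6), endothelial (5), macrophage (5) and satellite cell (3) markers had no gene called between semaglutide and vehicle. With the ketone ester 2 endothelial markers (40.0%, against 9.09% of all genes) were higher than with semaglutide alone, while none of the other 3 lists was called. Summed adipocyte markers reached 11063 normalized counts in semaglutide mouse 16 against 575 to 2674 in vehicle-treated mice. The part of these cell types in the values of the mitochondrial ribosomal protein genes was not tested.

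**Figure D5:**
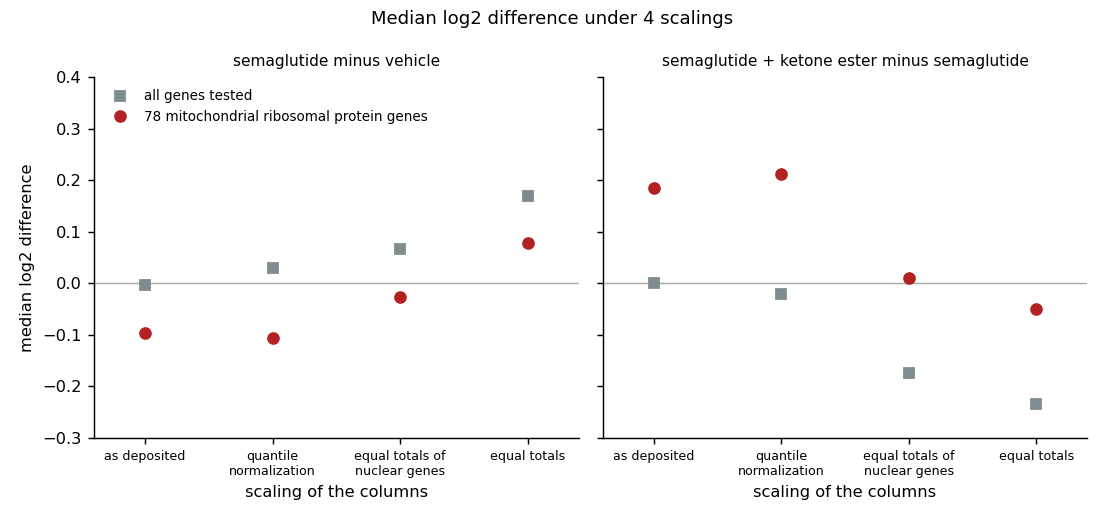
Median log2 difference of the 78 genes (circles) and of all 12303 genes tested (squares) under 4 scalings of the libraries, for semaglutide minus vehicle (left) and semaglutide + ketone ester minus semaglutide (right). The 78 genes lie below all genes at left and above them at right. The 2 scalings to equal totals multiply each library by 1 factor, so they shift both medians alike and could not change this order. Quantile normalization could have, and gave -0.11 against 0.028 for all genes at left and 0.21 against -0.021 at right.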

How the data were processed

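Total RNA of frozen gastrocnemius was extracted with TRIzol, and stranded mRNA libraries were sequenced as paired 59-base reads, which the authors aligned to mm10 with DRAGEN. The authors deposited normalized counts per gene, a signal scale with 1 column per mouse; the submitters' processing notes also name DESeq2, while the counting program, the annotation and its strand setting are not given in the sources used here. Every value was a whole multiple of the mouse's step (tolerance 0.001), so reads were recovered for 100% of the values, and the steps differed from median-of-ratios size factors by at most 1.33%. No replicate pair of a group agreed within sampling noise.

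The normalized counts were tested on log2(value + 1) with limma (version 3.58.1, R 4.3.3; trend off), for genes with a mean of at least 10, all 13 mice and 3 groups in 1 model, with Benjamini-Hochberg adjustment over 12303 genes. Fold changes understate those of low genes. The script was tested on simulated data. edgeR 4.0.16 and DESeq2 1.42.0 on recovered reads were alternatives, with other scalings, filters, pseudocounts, sample weights and fits without each mouse. Lengths and coordinates come from GENCODE M21 (GRCm38, as mm10) and promoters from RefSeq. 

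Members and lists were chosen with earlier results of these data known. Named were called members (at most 20 per comparison and all of the less common direction), otherwise the 3 with the smallest p, the 3 with the highest and lowest counts, the S18 paralogs, Mrps30, Mrps36, Mrpl12, the subunits with other symbols, and up to 3 genes per further list with the largest difference between semaglutide and vehicle. Further genes of these lists (the regulators, Tfam, Dld, Dlst, Ogdh) and the lowest and highest genes per kilobase were added after their values were seen. Mrpl58, listed at first among subunits with other symbols, was counted as a member only. The labels do not say that mice of different groups were paired, and give all libraries 1 batch.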

Additional observations from a re-analysis of the deposited data

Results flagged for a closer look

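In 160 groups of 5 mice (78 genes, their mean and their share of the reads, in vehicle-treated and semaglutide-treated mice), 5 had a mouse far from the others by Dixon's criterion, where chance alone gives about 8. For Mrpl48, semaglutide mouse 13 had 444 normalized counts, the next being 315. For Mrps2, the same mouse had 352, below the 399 of the next. For Mrpl30, semaglutide mouse 16 had 988 against 1331 in the next, and for Mrps18a it had 738 against 820. For Mrpl20, vehicle mouse 5 had 409 against 339. Of these genes only Mrpl48 was called in a comparison.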

How the results depend on the processing

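All groups were small, the semaglutide + ketone ester group had 3 mice, and p-values measure the spread between mice of 1 batch. The median of the 78 genes changed sign with equal totals in all 3 comparisons: 0.077 for semaglutide against vehicle, -0.051 for semaglutide + ketone ester against semaglutide and -0.0064 for semaglutide + ketone ester against vehicle. With equal totals of the nuclear genes the last was -0.049, also reversed, and the second moved to 0.0098. For semaglutide against vehicle, 12 genes were called without a filter on low values and 35 with sample weights, against 19 in the main analysis; for semaglutide + ketone ester against semaglutide, 8 and 30, and 2 when only these groups were fitted, against 14. The causes were not tested. On the recovered reads, edgeR called 17 genes lower and 3 higher, and 15 higher and 1 lower, in the first 2 comparisons, and 1542 lower and 1769 higher among all genes in the first. Leaving out each mouse gave 9 to 31 and 3 to 30 calls, medians from -0.14 to -0.071 and from 0.13 to 0.22, and for semaglutide + ketone ester against vehicle 0 calls and medians from 0.00084 to 0.086. Of the 19 genes called between semaglutide and vehicle, 9 were called in all 13 such fits and 3 (Mrpl48, Mrpl28 and Mrps18b) in all 12 other settings; of the 14 of the second comparison, 2 (Mrpl16 and Mrps18b) in all of both. No called gene changed sign in any setting. No paired analysis was possible because the labels do not say that mice of different groups were paired, and the groups share no mouse number.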
